A study of Mus musculus with 4 samples.

Results

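The genes described here are 47 genes of DNA replication and mitosis, in the chromatin-bound RNA of C2C12 myotubes. They were taken by gene symbol from the deposited table, and a gene was kept if at least 1 of its 4 counts was above 0. All 47 were kept, of 17880 features with a count. C2C12 is a mouse myoblast line, and myotubes are the multinucleated muscle cells it forms by fusion. All cells were myotubes deprived of steroids. They then had 2 h of vehicle, or 2 h of 1 µM dexamethasone, a synthetic glucocorticoid that activates the glucocorticoid receptor. Each group had 2 libraries, numbered replicate 1 and replicate 2, and the question was which genes the steroid changed within that time. RNA still attached to chromatin was sequenced, so the counts follow transcripts near the time they are made rather than the stored mRNA. The labels do not say that the 2 libraries of a group came from separate cultures, so p-values measure only the spread between these samples, which may be technical.

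A dividing cell first licenses its replication origins: Cdc6 and Cdt1 load the Mcm helicase onto DNA, and cyclin E with Cdk2 helps to start S phase. Ribonucleotide reductase then makes the deoxynucleotides, and E2F transcription factors drive the genes of this stage. Later, cyclin B with Cdk1, the Polo and Aurora kinases, the kinetochore and the spindle carry the cell through mitosis, with Foxm1 among the factors that drive those genes. Myotube nuclei have left the cell cycle, and these genes are largely shut off in differentiated muscle. C2C12 cultures also keep mononucleated cells that did not fuse.

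Promoters were set out first because replication and mitosis genes are known for different motifs. The stretches printed are the 250 bases before the start, from RefSeq on build GRCm38.p6, of 2 genes described under dexamethasone (Rrm2, E2f2) and 3 under the replicate number (Ect2, Cenpa, Mcm5). They are written 5′ to 3′ on the gene's strand, with the motif letters in capitals on either strand. The first motif searched was CCAAT, the box bound by NF-Y. The second was TTTGAA, the core of the cell cycle genes homology region (CHR). The others, called E2F-type here, were TTCCCGC, then TTGGCGC, and last the related TTCGCGC. A half-site of the glucocorticoid receptor, AGAACA, was also searched, as a motif added after the values were seen. E2F-type matches can share letters with each other and with CCAAT.
Rrm2 at chr12:24708004-24708253, plus strand: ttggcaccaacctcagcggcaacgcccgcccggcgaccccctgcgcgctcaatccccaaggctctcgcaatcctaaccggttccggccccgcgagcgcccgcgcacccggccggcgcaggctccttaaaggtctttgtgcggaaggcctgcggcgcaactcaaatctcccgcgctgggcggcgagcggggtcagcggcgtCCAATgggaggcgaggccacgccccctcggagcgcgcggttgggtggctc
E2f2 at chr4:136172024-136172273, plus strand, the first of 2 starts: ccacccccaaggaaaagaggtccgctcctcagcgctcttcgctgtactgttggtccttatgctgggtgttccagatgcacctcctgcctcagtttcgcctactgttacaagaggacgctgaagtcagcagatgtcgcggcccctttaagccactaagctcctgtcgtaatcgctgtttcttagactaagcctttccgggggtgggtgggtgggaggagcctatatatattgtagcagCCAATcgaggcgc
Ect2 at chr3:27153879-27154128, minus strand, the first of 2 starts: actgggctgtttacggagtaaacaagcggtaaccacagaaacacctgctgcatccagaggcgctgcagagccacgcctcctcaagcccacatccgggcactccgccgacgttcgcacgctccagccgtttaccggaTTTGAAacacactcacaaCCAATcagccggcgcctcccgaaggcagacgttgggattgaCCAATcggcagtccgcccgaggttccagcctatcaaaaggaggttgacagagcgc
Cenpa at chr5:30666636-30666885, plus strand: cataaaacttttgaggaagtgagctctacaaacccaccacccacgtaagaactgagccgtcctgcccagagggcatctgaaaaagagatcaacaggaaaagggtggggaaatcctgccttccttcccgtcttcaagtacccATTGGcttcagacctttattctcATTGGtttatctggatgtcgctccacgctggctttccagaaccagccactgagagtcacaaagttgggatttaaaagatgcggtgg
Mcm5 at chr8:75109259-75109508, plus strand: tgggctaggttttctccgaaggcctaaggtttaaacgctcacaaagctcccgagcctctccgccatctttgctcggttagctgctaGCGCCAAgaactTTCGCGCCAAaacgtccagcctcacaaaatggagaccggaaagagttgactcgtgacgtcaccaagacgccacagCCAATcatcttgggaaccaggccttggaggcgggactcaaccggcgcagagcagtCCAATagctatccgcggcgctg
The Rrm2 and E2f2 stretches each hold 1 CCAAT box, 50 and 13 bases before the start. Ect2 holds a CHR match 114 bases before the start and CCAAT boxes at 96 and 55 bases, while Mcm5 holds 3 E2F-type matches at 164, 152 and 149 bases. Cenpa holds CCAAT boxes at 109 and 86 bases. Windows that also take in the 50 bases after the start hold more: 1 CHR match for Cenpa and 1 E2F-type match for this E2f2 start. Ect2 and Mcm5 also have further matches there. The window of the other E2f2 start differs, with 3 CCAAT boxes, 1 CHR match and 0 E2F-type matches. No AGAACA lies in any of these windows, which says only that those letters are not in them.

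The promoters of 39 of the 47 genes were in the table, with 43 windows of 300 bases (250 before the start and 50 after). CCAAT was in 35 of the 43 windows (81.4%), against 37.4% of all 32851 windows in the table and 37.2% of the 13391 windows of genes tested here. Members were sorted by textbook knowledge into 24 genes of the G1/S stage and 23 of the G2/M stage. The CHR core was in 15 of 20 G2/M windows (75.0%) and in 3 of 23 G1/S windows (13.0%), against 17.9% of all windows and 11.9% of those of tested genes. E2F-type letters went the other way, with 14 of 23 G1/S windows (60.9%) and 5 of 20 G2/M windows (25.0%), against 8.07% and 13.7%. AGAACA was in 5 of 43 member windows (11.6%), against 19.0% of all windows and 12.7% of those of tested genes. These shares describe letters, and some genes have more than 1 window.

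Depth and the labelled cell type were checked on the whole table. The libraries held between 19631435 and 88596296 counts, the fewest in vehicle replicate 1 and the most in dexamethasone replicate 2. Differentiated myotube genes, Ttn and Neb the most abundant, summed to 134000 CPM (library-scaled counts, by TMM throughout) in vehicle replicate 1 and 129000 CPM in dexamethasone replicate 1. In the replicate 2 libraries they summed to 48700 CPM (vehicle) and 47500 CPM (dexamethasone). Genes of myoblasts and reserve cells lay between 1380 and 1510 CPM, led by Megf10 and Des. Fibroblast genes, led by Col3a1 and Col1a2, lay between 736 and 1100 CPM. Osteoblast genes lay between 260 and 486 CPM, nearly all of it Runx2, with at most 9 counts of Sp7 in a library. Adipocyte genes lay between 58.8 and 90.4 CPM, from Pparg, with at most 7 counts of Adipoq. Leukocyte genes summed to at most 7.57 CPM, with at most 1 count of Ptprc and 3 of Adgre1 in a library but 67 to 273 of Cd68 and at least 62 of Itgam. Endothelial genes summed to at most 2.15 CPM, with at most 1 count of Kdr and 17 of Cdh5, but 21 to 104 of Pecam1. Fkbp5, a textbook glucocorticoid target, rose with dexamethasone, with a log2 fold change of 5.32 (SE 0.263; edgeR adjusted p = 0.0429).

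The 47 genes were transcribed at low levels. Summed over the members, the vehicle libraries held 5534 (replicate 1) and 11441 counts (replicate 2), and the dexamethasone libraries 8726 and 28880. As shares of all counts these were 0.0282% (95% Wilson interval 0.0275% to 0.0289%), 0.0326% (0.0320% to 0.0332%), 0.0269% (0.0263% to 0.0274%) and 0.0326% (0.0322% to 0.0330%), where the intervals cover counting error only. On the CPM scale the sums were 297, 302, 291 and 309 in the same order, so the sum over all members differed little between the 4 libraries. A single member had between 8 counts (Cdc20 in vehicle replicate 1) and 3112 counts (E2f2 in dexamethasone replicate 2). In vehicle replicate 1 the median member had 68 counts and 30 members had under 100, which limits the precision of each of those genes. All 47 passed the filter on low counts and were tested.

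To compare genes with each other, levels were divided by exon length. The median member had 0.731 CPM per exon kb, against 4.50 for all genes tested, and 46 of the 47 lay below that median. E2f2, an activating E2F factor, was the exception at 7.38 CPM per exon kb. The repressive factor E2f8 followed at 4.05, then the ribonucleotide reductase subunit Rrm2 at 3.12, Cdk2 at 3.05, the other subunit Rrm1 at 2.89 and the helicase subunit Mcm7 at 2.59. These are means over all 4 libraries, and the place of Rrm2 comes from the dexamethasone libraries (5.09 and 4.10): with vehicle it stood at 1.84 and 1.44, below Rrm1 at 3.04 and 2.29. The lowest were Cdc6 at 0.207, cyclin B1 (Ccnb1) at 0.244 and Aurora kinase B (Aurkb) at 0.276. The proliferation markers Mki67 and Top2a stood at 0.776 and 1.07. Whether introns were counted is not given in the sources used here, and intron reads would raise genes with long introns on this scale. Fewer cells of a type and less RNA per cell cannot be told apart in such bulk samples.

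**Figure D1:**
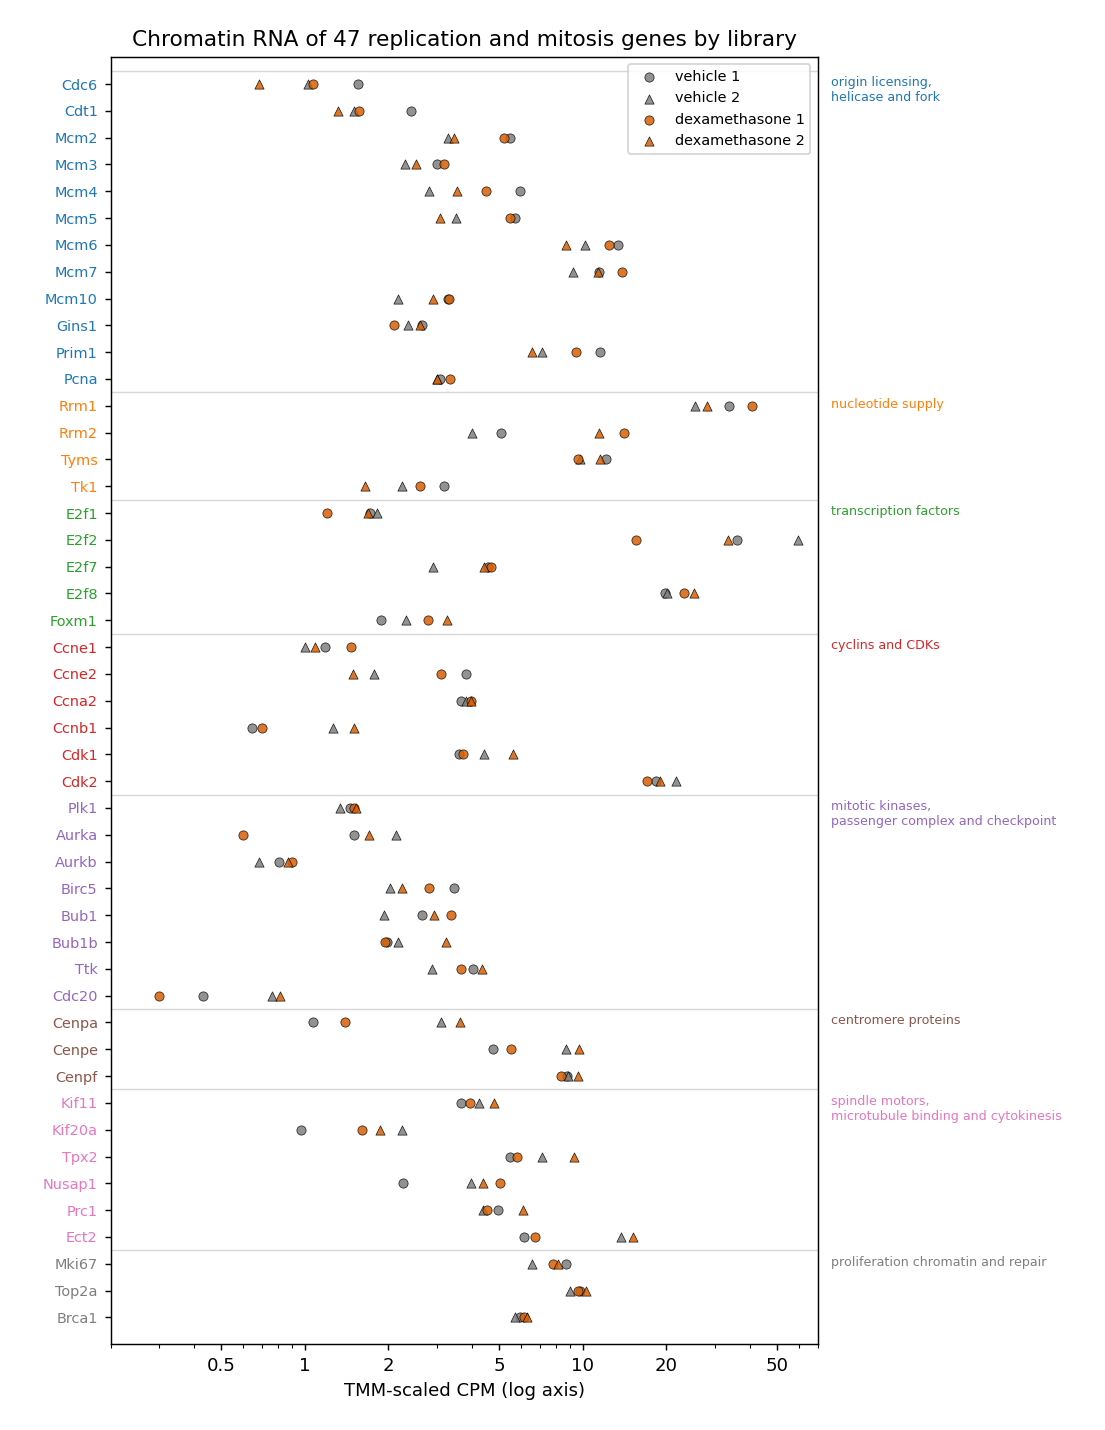
Levels of the 47 genes, one row per gene, as TMM-scaled CPM on a log axis, with a point for each of the 4 libraries (grey vehicle, orange dexamethasone; circles replicate 1, triangles replicate 2). In most rows the colours are mixed; Rrm2 has both orange points above both grey ones, and the shapes separate in rows such as Ect2 and Cenpa.

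After 2 h of dexamethasone, 0 of the 47 genes passed an adjusted p of 0.05 in edgeR's quasi-likelihood test, where 5 of 13285 genes (0.0376%) did, all higher. At an unadjusted p under 0.05, 1 member was higher, Rrm2, and 0 were lower, beside 4.09% and 1.69% of all genes. DESeq2's Wald test called Rrm2 alone, where it called 2.17% of all genes. The median log2 fold change was 0.10 for the members and -0.00 for all genes, with 30 members above 0 and 17 below. For 41 of 47 members the log2 fold change was under 0.5 either way, and the same was so for 87.6% of all genes. Both dexamethasone libraries were above both vehicle libraries for 9 members (19.1%, background 15.0% of all genes). They were below both for 2 members, E2f1 and E2f2 (4.26%, background 12.9%), and the libraries overlapped for the other 36. Nothing particular to the members is read from these counts. The middle member had an SE of 0.314 on the log2 scale, so modest changes of a single gene could not be shown.

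**Figure D2:**
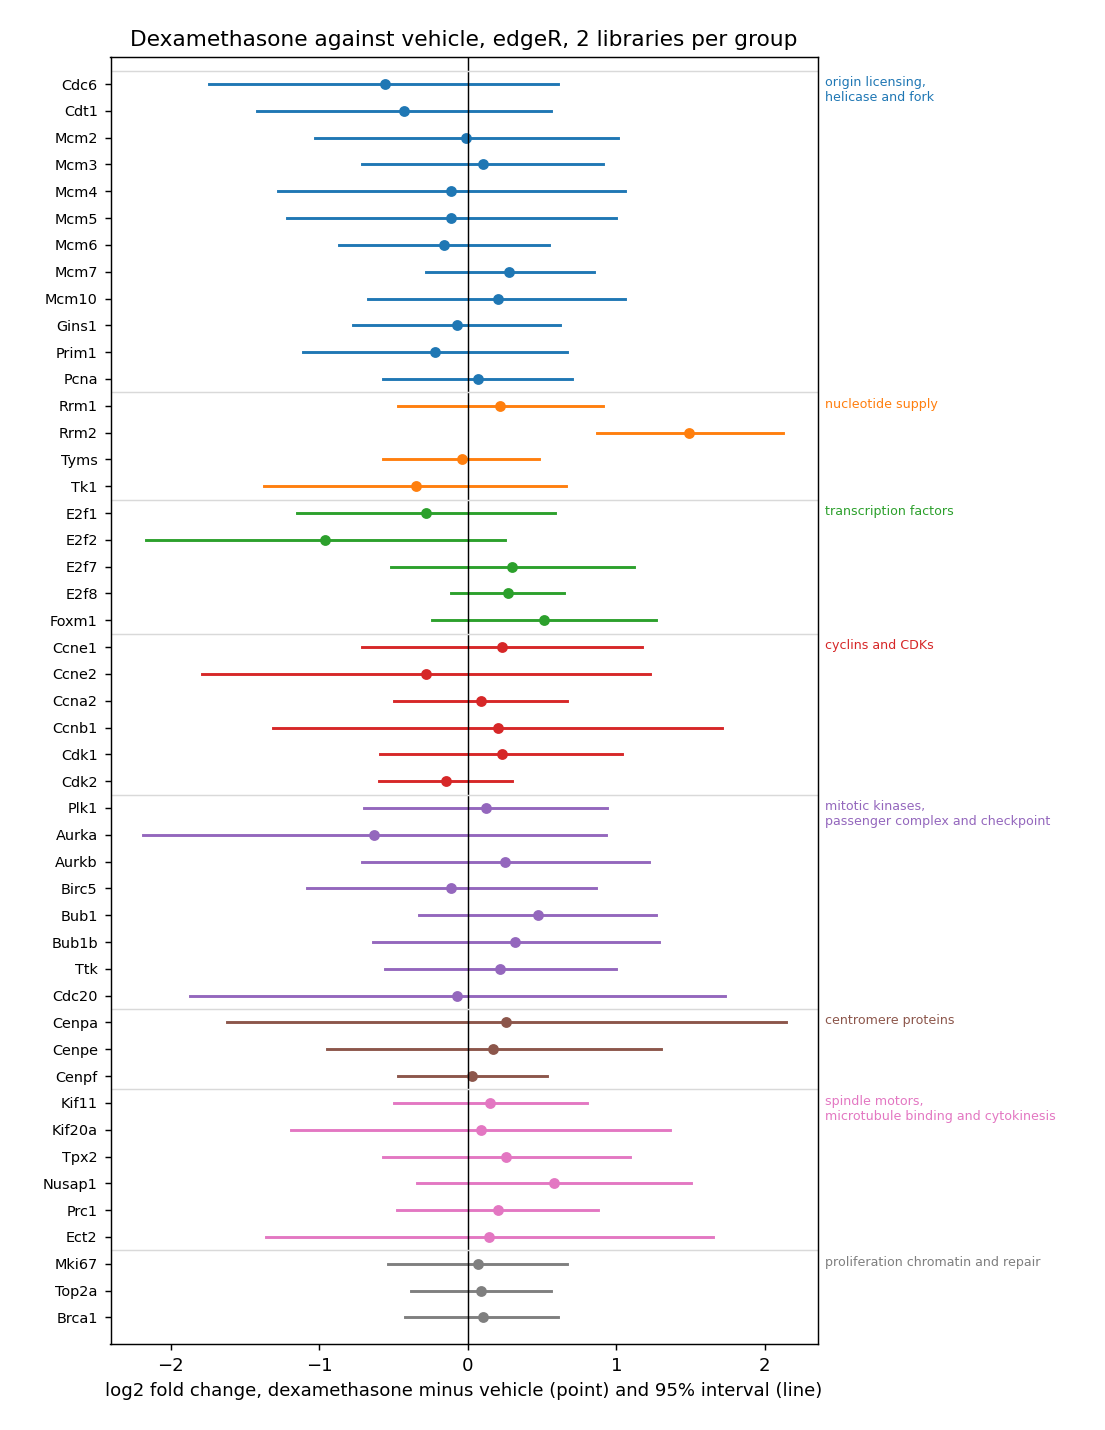
Log2 fold change of dexamethasone over vehicle for each of the 47 genes (point) with its 95% interval from edgeR (line), grouped by role and coloured as labelled at the right. The interval of Rrm2 (0.87 to 2.12) alone lies clear of 0.

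Nucleotide supply held the member with the largest fold change. Rrm2 (ENSMUSG00000020649), the small subunit of ribonucleotide reductase, had 95 and 151 counts with vehicle, and with dexamethasone 423 and 1062, in order of replicate number. That is 5.10 and 3.98 CPM against 14.1 and 11.4 CPM, so the lowest dexamethasone library lay well above the highest vehicle library. Group means were 4.54 ± 0.79 CPM for vehicle and 12.7 ± 1.94 CPM for dexamethasone (SD, n = 2 each). The fitted difference was 2.82-fold, a log2 fold change of 1.49 (SE 0.237, 95% interval 0.87 to 2.12). Its p in edgeR was 0.00206 before and 0.201 after adjustment over all genes, so it did not pass, whereas DESeq2's adjusted p was 0.000466. Within replicate number 1 the log2 ratio was 1.46 and within number 2 it was 1.50.

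The fold change of Rrm2 was larger than the values of its partner and its neighbours. Rrm1, the large subunit of the same enzyme, had 33.5 and 25.3 CPM in vehicle and 40.6 and 27.9 CPM in dexamethasone. Its libraries overlapped between the groups, with a log2 fold change of 0.22 (SE 0.260, 95% interval -0.47 to 0.91). Tyms, which makes thymidylate, had a value of -0.04 (SE 0.198), and the salvage kinase Tk1 one of -0.35 (SE 0.385). In the gene order of GENCODE M21, the genes beside Rrm2 had values of 0.24 for Klf11 (SE 0.310), 0.67 for Cys1 (SE 0.382) and 0.10 for Mboat2 (SE 0.135). No other annotated coding or long noncoding gene overlaps Rrm2. The differences between these genes were not tested.

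**Figure D3:**
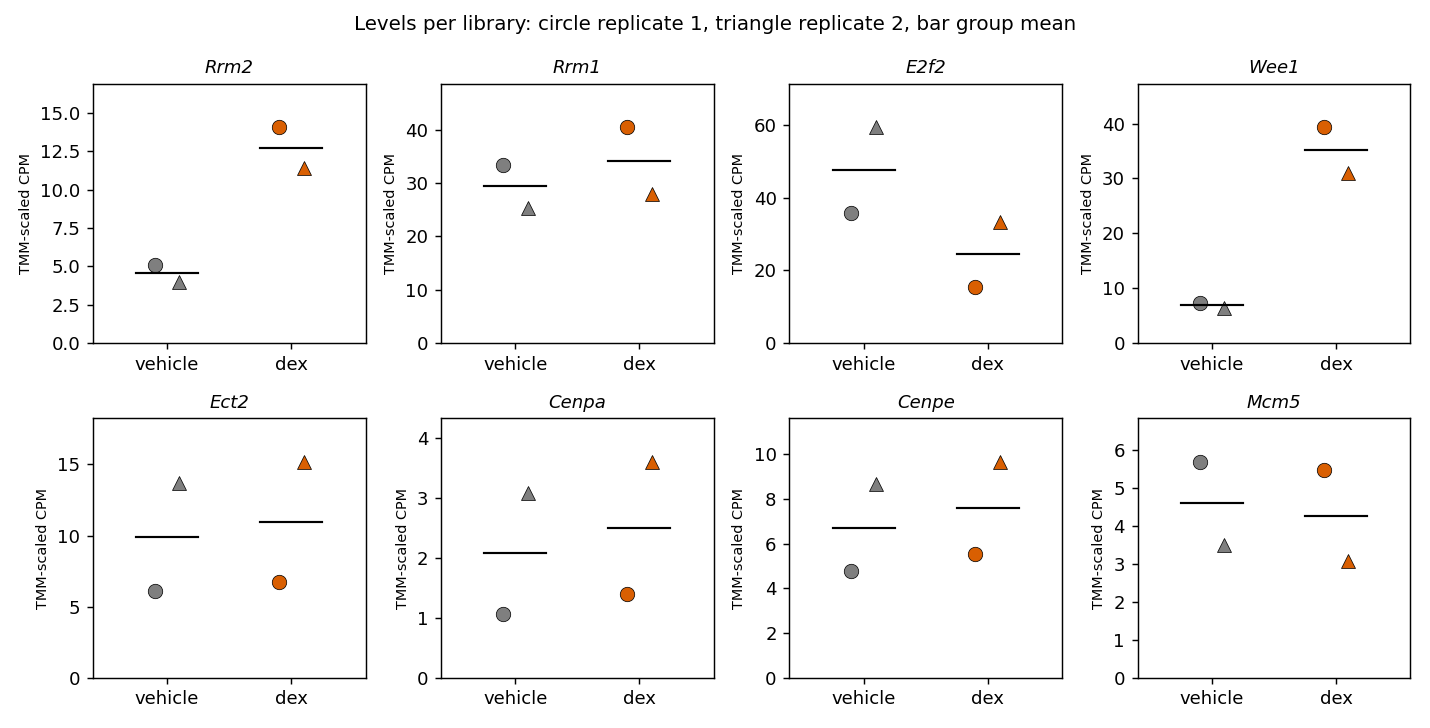
TMM-scaled CPM in each library for 8 genes (circle replicate 1, triangle replicate 2, bar the group mean; each vertical axis starts at 0 and has its own range). The dexamethasone points of Rrm2 and Wee1 lie above their vehicle points, those of E2f2 lie below, and Ect2, Cenpa, Cenpe and Mcm5 split by replicate number.

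Among the transcription factors, the 4 E2F genes had values on both sides of 0, and none passed the edgeR test with group as the only term. E2f2 (ENSMUSG00000018983) had 35.8 and 59.5 CPM with vehicle, and with dexamethasone 15.5 and 33.3 CPM. Both dexamethasone values were below both vehicle values, but the closest pair, 35.8 and 33.3 CPM, differed little. The means were 47.6 ± 16.7 and 24.4 ± 12.6 CPM (SD, n = 2 each). In edgeR the fitted log2 fold change was -0.96 (SE 0.457, 95% interval -2.17 to 0.25), with an adjusted p of 1.00. Within replicate numbers 1 and 2 the log2 ratios were -1.21 and -0.83. Asap3, the next gene on the same strand, had 18.5 and 28.7 CPM in vehicle and 8.64 and 17.0 CPM in dexamethasone, a value of -0.88 (SE 0.410). The other genes nearby had -0.27 for Tcea3 (SE 0.222), -0.26 for Id3 (SE 0.544) and 0.36 for Rpl11 (SE 0.310). Asap3 starts after E2f2 in the direction of transcription, and any link between their values was not tested.

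E2f8, a repressive E2F, had 19.8 and 20.1 CPM in vehicle and 23.1 and 25.1 CPM in dexamethasone. Its log2 fold change was 0.27 (SE 0.144), small beside that of Rrm2, although the groups did not overlap. Foxm1, a factor of mitotic genes, had 1.88 and 2.32 against 2.77 and 3.25 CPM, a value of 0.51 (SE 0.284). E2f1 had -0.28 (SE 0.328) and E2f7 had 0.30 (SE 0.309). For these 4 the unadjusted p was also above 0.05.

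None of the 12 genes of origin licensing, the helicase and the fork passed the test. The libraries overlapped for 12 of 12, with log2 fold changes from -0.56 for Cdc6 (SE 0.444) to 0.28 for Mcm7 (SE 0.213) and a median of -0.09. Cdc6 had 1.56 and 1.03 CPM in vehicle and 1.07 and 0.685 CPM in dexamethasone. Pcna, the sliding clamp of the replication fork, had 3.06 and 2.98 CPM against 3.34 and 2.99 CPM, a value of 0.07 (SE 0.241). The 6 cyclins and CDKs lay between -0.28 and 0.23. Cdk2, the most abundant of them per kb, had 18.3 and 21.6 CPM in vehicle and 17.0 and 18.9 CPM in dexamethasone (-0.15, SE 0.169).

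Of the mitotic genes, none passed the test. The 8 mitotic kinases, passenger proteins and checkpoint genes ran from -0.63 for Aurka (SE 0.590) to 0.47 for the checkpoint kinase Bub1 (SE 0.303). Aurka had 1.50 and 2.13 CPM in vehicle and 0.601 and 1.70 CPM in dexamethasone, and the low dexamethasone value rests on 18 counts. The 3 centromere genes had values from 0.03 to 0.26. All 6 spindle and cytokinesis genes were above 0, from 0.09 to 0.58, with the microtubule-binding protein Nusap1 the highest (2.25 and 3.95 against 5.04 and 4.36 CPM, SE 0.347). Mki67 and Top2a gave 0.07 (SE 0.228, 95% interval -0.54 to 0.67) and 0.09 (SE 0.178, 95% interval -0.38 to 0.56).

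By stage, 20 of the 23 G2/M genes had a positive log2 fold change and 3 a negative one, with a median of 0.17, while the 24 G1/S genes had 10 and 14 with a median of -0.06. None of the 23 G2/M genes passed the test, adjusted or not. After a single random thinning of all libraries to the smallest total, 16 were above 0 and 7 below, with a median of 0.07. The part of depth in that change was not tested. The G2/M count also differed between the replicate numbers, with 14 of 23 above 0 within number 1 (median 0.08) and 21 of 23 within number 2 (median 0.21). Between the treatment groups 0 of 17 myotube genes passed the test.

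A further 86 genes of replication and mitosis, listed from general knowledge, were read from the same fit. Of these 80 were tested, and 0 passed; 54 lay above 0 and 26 below, with a median of 0.12. At an unadjusted p under 0.05, 1 was higher and 0 were lower, and DESeq2 called 1. That gene was Wee1, the kinase that holds Cdk1 inactive before mitosis. It had 137 and 242 counts in vehicle and 1182 and 2893 in dexamethasone, or 7.35 and 6.38 CPM against 39.4 and 31.0 CPM. The libraries lay far apart, with a log2 fold change of 2.36 (SE 0.204, edgeR adjusted p = 0.117). Its adjusted p was 0.0458 with no filter beyond 1 count and 7.33e-15 by DESeq2. Leaving out single libraries gave adjusted p-values from 0.017 to 0.0622, and Wee1 passed without vehicle replicate 2 and without dexamethasone replicate 2.

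Next after Wee1 by p-value on the higher side were the kinesin Kif4 (0.49, SE 0.248) and the condensin subunit Smc4 (0.61, SE 0.337). On the lower side they were cyclin F (Ccnf, -0.48, SE 0.329), the polymerase subunit Pole2 (-0.31, SE 0.234) and Gins2 of the replicative helicase (-0.61, SE 0.546). The 6 genes not tested were Ccnb2, Chek1, Spc24, Kif23, Anln and Hjurp. A row of each was listed at 0 in every library. All but Hjurp lie on the minus strand of chromosome 9, in runs of 164 or 371 consecutive genes all listed at 0. The zeros of those 5 were therefore not read as silence. Hjurp lies on chromosome 1, outside such a run, but the lookup for testing found no row under its plain symbol. Any other row of Hjurp was not examined, so its zeros were not read as silence either.

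By replicate number, 16 of the 23 G2/M genes had a positive log2 fold change and 19 of the 24 G1/S genes a negative one. A fit with the number as the only term set the replicate 2 libraries of both groups against the replicate 1 libraries; what the number stands for is not given in the labels. Of the 47, 3 were higher in replicate 2 at an adjusted p of 0.05 and 0 were lower, beside 9.65% of all genes called, 3.85% higher and 5.80% lower. The 3 are 6.38% of the members, from which nothing particular to the members is read. By DESeq2, 3 members were higher and 5 lower at that threshold, beside 19.4% of all genes called. All 3 belong to mitosis: the guanine nucleotide exchange factor Ect2 of cytokinesis, the centromeric histone Cenpa and the kinetochore motor Cenpe. At an unadjusted p under 0.05, 6 members were higher and 8 lower, beside 16.8% and 17.9% of all genes.

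Ect2 (ENSMUSG00000027699) had 6.12 CPM in vehicle replicate 1 and 6.71 CPM in dexamethasone replicate 1, against 13.7 and 15.2 CPM in the replicate 2 libraries. The means were 6.41 ± 0.418 and 14.5 ± 1.09 CPM (SD, n = 2 each). On the log2 scale the fitted difference was 1.17 (SE 0.116, edgeR adjusted p = 0.0326). Within vehicle the log2 ratio was 1.16 and within dexamethasone 1.18, while the dexamethasone fold change of Ect2 was 0.14 (log2, SE 0.568). Cenpa had 1.07 and 1.40 CPM in the replicate 1 libraries and 3.08 and 3.61 CPM in the replicate 2 libraries (1.42, SE 0.222, edgeR adjusted p = 0.0421). For Cenpe these were 4.77 and 5.54 against 8.67 and 9.67 CPM (0.83, SE 0.136, edgeR adjusted p = 0.0441). With any 1 library left out, the log2 fold changes were 1.10 to 1.26 for Ect2, 1.26 to 1.66 for Cenpa and 0.73 to 0.96 for Cenpe. None of the 3 passed there (edgeR adjusted p from 0.0845 to 0.256), but such fits leave 1 library on one side and called 0 of all genes in 3 of 4 cases and 1 higher and 37 lower without dexamethasone replicate 1, so the lost calls say nothing about these genes.

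Other mitotic genes had like values without passing. Cyclin B1 had 0.644 and 0.701 CPM in replicate 1 and 1.26 and 1.50 CPM in replicate 2 (1.04, SE 0.241, edgeR adjusted p = 0.0669). Cdc20, the activator of the anaphase-promoting complex, had 0.429 and 0.300 against 0.764 and 0.814 CPM (1.15, SE 0.314, edgeR adjusted p = 0.0843). Its replicate 1 values rest on 8 counts (vehicle) and 9 counts (dexamethasone). Not all mitotic genes lay on that side: of the 8 mitotic kinase, passenger and checkpoint genes 3 were above 0 and 5 below, with a median of -0.05, and Mki67 was at -0.16 and Top2a at -0.00. The spindle factor Tpx2 had 5.47 and 5.81 against 7.12 and 9.27 CPM (0.54, SE 0.173). For both replicate 2 libraries to lie above both replicate 1 libraries was the case for 12 of 23 G2/M genes, and the reverse for 1, Birc5 (-0.54, SE 0.186). The background was 32.1% of all genes higher and 31.8% lower.

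Of the members, the G1/S genes lay mostly on the other side. For 16 of the 24 G1/S genes (66.7%, background 31.8% of all genes) both replicate 2 libraries were below both replicate 1 libraries. For 1, Cdk2, both were above (4.17%, background 32.1%). Cyclin E2 (Ccne2) had 3.81 and 3.10 CPM in replicate 1 and 1.77 and 1.49 CPM in replicate 2, a log2 fold change of -1.09 (SE 0.208, edgeR adjusted p = 0.0517). Mcm5 had 5.69 and 5.47 against 3.50 and 3.06 CPM (-0.77, SE 0.143), with an edgeR adjusted p that rounds to 0.05 and lies just above it. Mcm2 followed (-0.66, SE 0.129), then the primase subunit Prim1 (-0.62, SE 0.143), Rrm1 (-0.48, SE 0.128) and Mcm6 (-0.45, SE 0.126). None of the G1/S genes passed in edgeR's quasi-likelihood test, while DESeq2 called Ccne2, Mcm5, Mcm2, Prim1 and Rrm1 lower, beside 10.9% of all genes. The median was -0.35 for G1/S genes, with 5 above 0 and 19 below, and 0.25 for G2/M genes, with 16 above and 7 below, against 0.01 for all genes. In vehicle alone the medians were -0.38 and 0.21, and in dexamethasone alone -0.30 and 0.25. E2f2 was an exception among the G1/S genes, at 0.86 (SE 0.503).

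**Figure D4:**
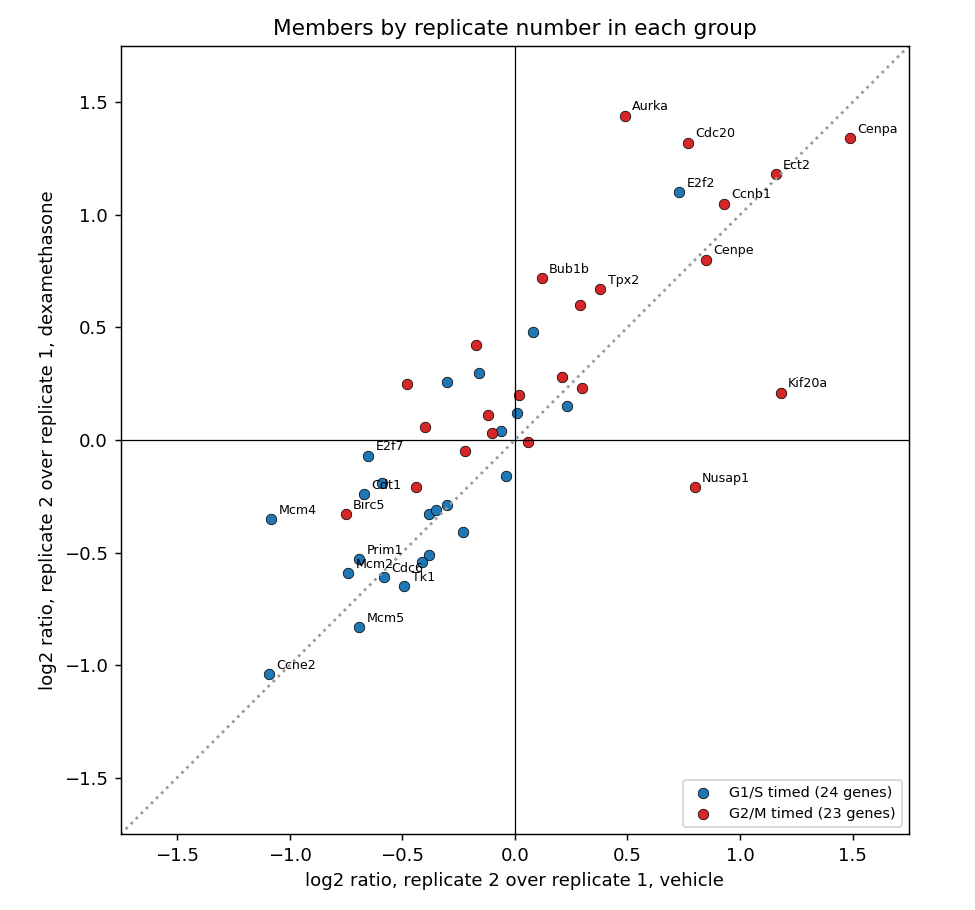
Log2 ratio of replicate 2 to replicate 1 for each of the 47 genes, in vehicle (horizontal) and in dexamethasone (vertical); blue points are the 24 G1/S genes and red points the 23 G2/M genes, and the dotted line marks equal ratios. Most blue points lie at lower left and Ect2, Cenpa and Cenpe at upper right near the line. The labels do not say whether libraries of the same number are independent of each other. No test of the stages against each other was made.

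Markers of differentiation moved with the same number. In replicate 2, 12 of the 17 myotube genes were lower and 0 higher at an adjusted p of 0.05, with a median log2 fold change of -1.51, and the summed list ran from 129000 to 134000 CPM in replicate 1 and from 47500 to 48700 CPM in replicate 2. Of the myoblast and reserve cell genes, 12 of 14 were tested and 1 was lower, Des (-1.20), with a median of -0.37. Both replicate 2 libraries were below both replicate 1 libraries for 7 of the 12 and above for 2, beside 31.8% and 32.1% of all genes. Their summed level, led by Megf10 (0.42), overlapped between the numbers. The part of these markers in the members' values was not tested. The scaling mattered for this comparison: with library size alone the median of all genes was 0.19 and the medians of the G1/S and G2/M genes were -0.16 and 0.43, so the stages still lay on either side of all genes. With that scaling, 76.9% of all calls were higher, against 39.9% with TMM.

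The wider pathway list had 5 genes higher (6.25%) and 2 lower (2.50%) in replicate 2, of 80 tested. The background was 3.85% of all genes higher and 5.80% lower, and nothing particular to the list is read from these counts. Separase (Espl1, 1.06), the phosphatase Cdc25c (1.58), the kinesin Kif2c (1.19), the spindle protein Ckap2 (0.93) and the primase subunit Prim2 (0.47) were higher. The polymerase subunit Pola1 (-0.39) and the condensin subunit Ncapd2 (-0.76) were lower. The median of this list was 0.07, with 45 genes above 0 and 35 below. Its replication genes lay on both sides of 0, among them Gins2 (0.91), Rfc2 (0.44), Fen1 (-0.94) and Rfc3 (-0.41). The lower values of most G1/S members were thus not a trait of all replication genes. With any 1 library left out the log2 fold changes kept their sign, from 0.41 (Prim2) to 1.88 (Cdc25c) for the 5 and from -0.91 (Ncapd2) to -0.35 (Pola1) for the others. As with Ect2, Cenpa and Cenpe, none passed in those fits (edgeR adjusted p of at least 0.115), where hardly any gene did.

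Some members share their locus with other genes. In GENCODE M21, 34 of the 47 overlap no other coding or long noncoding gene, 2 overlap one on the same strand (Cdt1 and Foxm1) and 11 overlap one on the opposite strand, among them Mcm7, Ccne2, Ccna2, Cdk2 and Nusap1. Since the strand setting of the counting is not given in the sources used here, reads of those 13 genes and of their partners may not be separate. Pcna, Tyms and Ccnb1 have named pseudogenes that could share reads with them.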

How the data were processed

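The members, the gene lists, the sorting by stage and the tests were chosen with earlier results of these data known. Members were named by their list, and other genes if they passed a test or had the 3 smallest p-values in a direction. The authors deposited read counts, not normalized, with a row for each gene. Per the submitters' processing notes, TopHat2 2.0.13, SAMtools 1.1, HTSeq 0.6.1 and DESeq2 1.18.1 were used with build mm9; annotation, strand setting and intron counting are not given in the sources used here. The labels name both a stranded total RNA kit and a stranded mRNA kit. Of 23333 rows, 51 repeated a gene and its counts and were dropped. Groups and replicate numbers came from the sample titles.

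Genes were filtered with filterByExpr (minimum count 10, minimum total 15), leaving 13285. They were tested with edgeR 4.0.16 (R 4.3.3, TMM scaling with factors from 0.924 to 1.08, quasi-likelihood test, Benjamini-Hochberg over all genes, threshold 0.05). Log2 ratios within a replicate number add a prior count of 2. The script was tested on simulated data. Exon lengths, overlaps and gene order came from GENCODE M21 (GRCm38), with a length for 99.5% of tested genes, and promoters from RefSeq. Alternatives were DESeq2 size factors, library size only, other filters, the replicate number as a block, DESeq2 1.42.0, the likelihood ratio test of edgeR, thinning to the smallest total, and leaving out each library.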

Additional observations from a re-analysis of the deposited data

How the results depend on the processing

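With 2 libraries a group every test is limited, and members with few counts in the smallest library have wide intervals. Of the 47 genes, 0 were called under dexamethasone with either other scaling, either other filter, thinning, or any 1 library left out; DESeq2's Wald test and edgeR's likelihood ratio test each called 1, Rrm2. With the replicate number as a block 2 were called, Rrm2 (adjusted p = 0.000376) and E2f2 (log2 fold change -0.99, adjusted p = 0.00159), where 12.7% of all genes were called. The labels do not say that a number pairs libraries. The replicate differences of the 2 groups correlated at 0.734 over all genes and 0.809 over the members, from 2 pairs only, so the pairing is not established. Of the wider list, the block called Wee1 (edgeR adjusted p = 5.94e-05) and Smc4 (0.00392) higher, and Cit (0.017) and Ccnf (0.0286) lower.

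For replicate number, the 3 calls, all higher, became 5 (3 higher, 2 lower) with no filter beyond 1 count, where 7.60% of all genes were called, and 5 (3 and 2) with at least 10 counts in every library (1362 of 12414 genes). They became 8 (3 and 5) with DESeq2 (19.4%), 8 (4 and 4) with the likelihood ratio test (14.2%) and 19 (9 and 10) with treatment as a term (44.3%). With a library left out they were 0 to 0, in fits that called at most 38 of all genes. The median of the members was 0.167 with library size only. The median of all genes was 0.19 with that scaling and 0.01 with TMM, and the cause was not tested.

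Directions reversed for some dexamethasone values near 0. Cenpf was at -0.00 with library size only and when thinned. With a library left out, the log2 fold changes ranged from -0.07 to 0.47 (Rrm1), -0.08 to 0.13 (Cenpf), -0.11 to 0.28 (Mki67), -0.58 to 0.86 (Ect2), -0.18 to 0.12 (Tyms), -0.01 to 0.14 (Pcna), -0.59 to 1.26 (Cenpa) and -0.29 to 0.69 (Cenpe). For Rrm2 by replicate number the range was -1.28 to 0.62. These causes were not tested. Rrm2 under dexamethasone ranged from 1.33 to 1.68 and E2f2 from -1.62 to -0.51.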
